A study of Sus scrofa with 6 samples.

Results

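Exonic circular RNAs (circRNAs) that earlier pig studies had already listed were examined in granulosa cells of the porcine ovary. Members were the rows of the deposited circRNA table that were classed as exonic and carried an identifier from an earlier pig list, which gave 1687 of 9362 circRNAs. The remaining 3403 exonic circRNAs had no such identifier and are called unlisted here. Of the members, 1382 carried an identifier that begins with cortex, 165 one that begins with collective and 140 one that begins with ssc-ciR. Sequencing covered 6 libraries of isolated mural granulosa cells, the cells that line the inner wall of the follicle and make estradiol. In 3 of them the cells came from atretic antral (AA) follicles, which are degenerating, and in 3 from healthy antral (HA) follicles. Each library was a pool of several follicles from untreated gilts, picked under a stereomicroscope, and the study's methods state that cells floating in the follicular fluid were kept with the scraped cells, so a library describes a mixture and no single follicle. The cells had no added treatment and no genetic change.

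A circRNA forms when the spliceosome joins the end of an exon to the start of the same or an upstream exon of the same transcript. The resulting ring has no free end, resists exonucleases, and can stay in the cell longer than the linear mRNA of its host gene. Reads that cross this back-splice junction are the only reads that tell the ring from the mRNA, so a circRNA was counted by its junction reads. Exonic circRNAs are the class in which functions such as binding miRNAs or proteins have been studied most, and atresia is the death of the granulosa layer that removes most follicles before ovulation.

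Junction sequences were not printed because no genome of the build used (Sscrofa10.2) was at hand, but the study's divergent primers identify members that the results below return to. Divergent primers point away from each other on the linear transcript and give a product only across a back-splice junction. Of the study's primer pairs for circRNAs, those of 6 targets match a member by host gene and length, and they are printed because these members separate or nearly separate AA from HA below. All 6 are among the circRNAs that the paper lists as different between AA and HA in these same libraries. Their separation below was therefore built into the choice and is no evidence of its own. All bases are in lower case, since the place of the primers in the circRNA was not checked.
circ_ZMYM4 forward: aaggggaaaccgaacagg
circ_ZMYM4 reverse: ttcagggcatccgtttgt
circ_ANGPT1 forward: ggaaaccgagcctattcaca
circ_ANGPT1 reverse: agctttctggtctgctctgc
circ_CBFA2T2 forward: ctccgcctcttcagcactac
circ_CBFA2T2 reverse: gcaggaccattgctgaatct
circ_RB1 forward: taattgcaccgtgaatccaa
circ_RB1 reverse: tcaccagatcatcttccatttg
circ_SLC30A7 forward: tgtaattgcctctgccatca
circ_SLC30A7 reverse: taacagatgctgccaatcca
circ_WDR7 forward: ctaccaggccacctagacca
circ_WDR7 reverse: caacgcttccacatcaaaga

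The listed exonic circRNAs were a minority of the exonic circRNAs and held most of their reads. They collected 40167 junction reads, which was 57.2% of the exonic reads and 21.9% of all junction reads. The median member had 10 reads over the 6 libraries, with quartiles of 4 and 22, against 6 reads with quartiles of 3 and 11 for the unlisted exonic circRNAs. Reads were concentrated in few members. The 12 most abundant held 16.6% of the members' reads and the 100 most abundant 44.7%, while 521 members (30.9%) had at most 5 reads in all. More than 50 reads were found for 147 members and more than 100 for 61. Among the identifier groups the median was 10 reads for cortex, 8 for ssc-ciR and 7 for collective.

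The libraries differed in how many members they held. Relative depth, which is the number of mapped reads as the deposited scaling implies it, with AA1 set to 1, ranged from 0.695 in HA1 to 1 in AA1. Members detected numbered 671 in AA1, 260 in AA2, 388 in AA3, 385 in HA1, 725 in HA2 and 868 in HA3. The libraries with fewest members had most reads on each. The median detected member had 5 reads in AA1, 15 in AA2, 13 in AA3, 14 in HA1, 6 in HA2 and 4 in HA3, and the unlisted exonic circRNAs had 4, 12.5, 12, 12, 5 and 3 in the same order. AA2, AA3 and HA1 thus stood apart from the other 3 libraries in both kinds of exonic circRNA, and since 2 of them were AA and 1 was HA, the comparisons below were also computed with each left out. Because a detected circRNA had at least 2 reads in a library, 0 means that no count was entered, not that the circRNA was absent. Genes that mark granulosa cells were read in the gene table of FPKM values (fragments scaled to transcript length and library size). Of 10 granulosa markers 8 were found, and their summed FPKM was 2706 to 6235 in AA and 5691 to 11220 in HA, most of it from INHA and INHBA. CYP19A1 was lower in AA without overlap, with 127.5 to 307 FPKM against 744 to 1052 in HA. NR5A2 was too, with 130 to 337 against 457 to 494. FSHR went the other way without overlap, with 92.0, 88.3 and 89.98 FPKM in AA against 51.0, 33.3 and 28.4 in HA. The remaining granulosa markers found overlapped between the groups. All 7 leukocyte markers were in the table, with CD163 at 0 in every library, and their sum was 23.4 to 84.0 FPKM in AA and 3.47 to 10.8 in HA. The sum over the 4 endothelial markers found was 7.76 to 16.6 in AA and 3.36 to 6.04 in HA, with none at 0. That over the 4 theca markers was 33.4 to 90.4 in AA and 199.5 to 339 in HA, with none at 0 in all libraries. Most of this sum came from LHCGR, with 21.3 to 65.3 FPKM in AA and 172 to 286 in HA, so it mainly follows that gene. CYP17A1, which the paper treats as specific to theca cells, stayed at 1.38 FPKM or less. The part of these other cells in the results below was not tested.

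Of the exonic junction reads in a library, listed circRNAs took 56.0% in AA1, 56.4% in AA2, 53.8% in AA3, 58.9% in HA1, 58.2% in HA2 and 59.7% in HA3. The groups did not overlap, with a mean of 55.4% ± 1.39 in AA against 59.0% ± 0.765 in HA (SD, n = 3 each). The difference of 3.57 percentage points is larger than either SD, and it is given as a description without a p-value. As a share of all junction reads the means were 20.2% ± 1.78 in AA and 23.4% ± 0.980 in HA. Per relative depth the members had 7146 ± 2218 reads in AA and 8729 ± 2209 in HA, a difference within the spread between libraries.

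**Figure D1:**
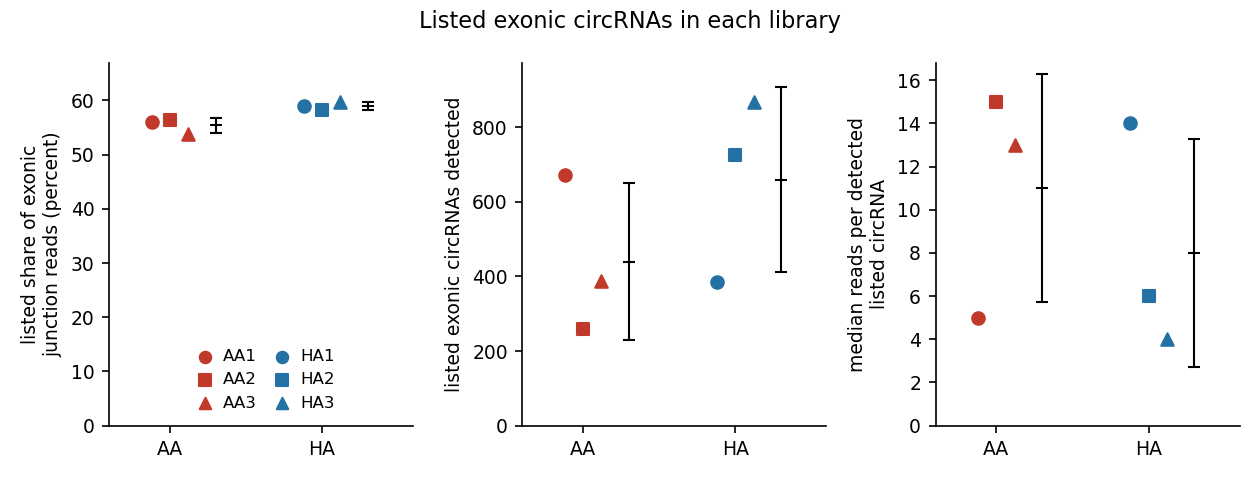
Share of exonic junction reads in listed circRNAs (percent), number of listed exonic circRNAs detected, and median junction reads per detected listed circRNA, by library. Points are libraries, and the black bar beside each group is the mean with its SD over 3 libraries. The share lies between 53.8% and 56.4% in AA and between 58.2% and 59.7% in HA, whereas detection and median reads split the libraries as AA2, AA3 and HA1 against AA1, HA2 and HA3.

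Detection across libraries was more regular for listed than for unlisted exonic circRNAs. Of the members, 911 were found in 1 library (54.0%), 350 in 2, 200 in 3, 102 in 4, 66 in 5 and 58 in all 6. At least 3 libraries held 25.3% of the members and 3.85% of the unlisted circRNAs, and all 6 held 3.44% and 0.118%. The 58 members found in all 6 libraries carried 31.7% of the members' reads. Members with cortex identifiers reached 3 libraries in 28.0% of cases, those with ssc-ciR identifiers in 12.9% and those with collective identifiers in 12.7%.

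**Figure D2:**
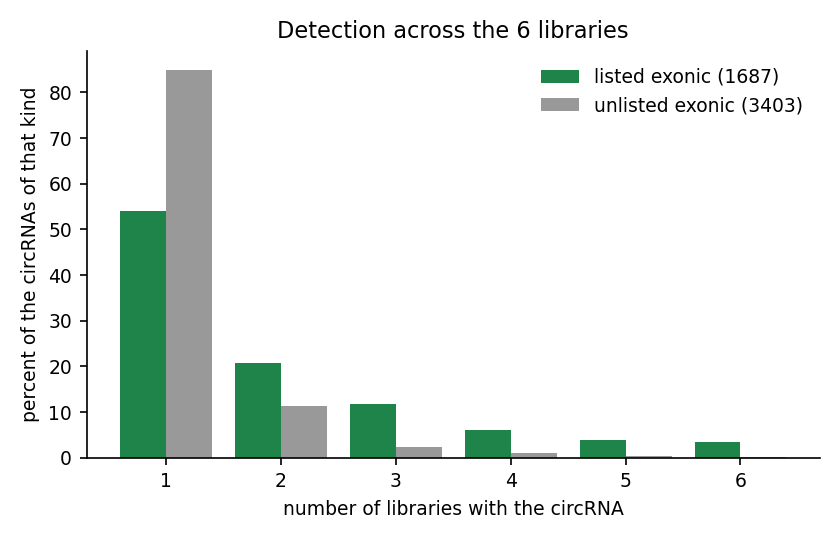
Percent of circRNAs (vertical axis) found in 1 to 6 libraries (horizontal axis), for the 1687 listed and the 3403 unlisted exonic circRNAs. A single library held 54.0% of the listed and 84.9% of the unlisted circRNAs, and the listed share is higher at every number of libraries from 2 to 6.

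The same contrast was then made within each library, so that depth and RNA input were shared. Of the listed circRNAs detected in a library, 66.9% to 80.8% were also found in another of the 6 libraries, against 25.6% to 36.5% of the unlisted ones. The difference was 42.8 ± 2.74 percentage points (SD over 6 libraries) and was positive in 6 of 6 libraries. An exact two-sided sign-flip permutation test over the 6 libraries gave p = 0.03125, which is the smallest it can give, and 0.03125 after Benjamini-Hochberg adjustment over the 4 comparisons of this family. The 6 values are not independent, because a circRNA found in 2 libraries counts as found again in both. The test treats them as independent, so its p-value overstates the replication. Since circRNAs with more reads are found again more easily, the share was also taken within classes of reads. Reads were not matched inside a class, and the class of over 15 reads has no upper limit. The difference was 36.6 ± 8.85 points among circRNAs of 2 to 5 reads in the library, 42.6 ± 2.17 among those of 6 to 15 reads and 32.0 ± 17.1 among those of over 15 reads, positive in all 6 libraries each time. The difference was thus present among circRNAs of few reads as well.

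Detected members also had more reads and were slightly shorter. The median number of reads was higher by 0.27 ± 0.0999 on the log2 scale, in 6 of 6 libraries (exact sign-flip p = 0.03125, adjusted 0.03125). The median length was 518 to 571 nt for listed and 561 to 603.5 nt for unlisted circRNAs of the same library, which is a log2 difference of -0.09 ± 0.0528, negative in 6 of 6 libraries with the same exact p and adjusted p. With 1 circRNA per host gene the difference in length was similar, at -0.0812, with an adjusted p of 0.09375. Median host gene FPKM was 26.0 to 30.7 for listed and 27.7 to 32.4 for unlisted circRNAs, a log2 difference of -0.10 ± 0.0421 that was negative in 6 of 6 libraries (exact sign-flip p = 0.03125, adjusted 0.03125). Its direction depended on the summary used, because the mean of the log2 values was higher for listed circRNAs by 0.06. Among the host genes that gave both kinds, members again had more reads, by 0.26 ± 0.102 on the log2 scale, and were shorter, by -0.18 ± 0.0668, each in the same direction in all 6 libraries (exact sign-flip p = 0.03125, adjusted 0.0417). In all comparisons of this paragraph a circRNA found in several libraries enters each of them, with the same length every time. The 6 values are therefore not independent here either, and these p-values overstate the replication.

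**Figure D3:**
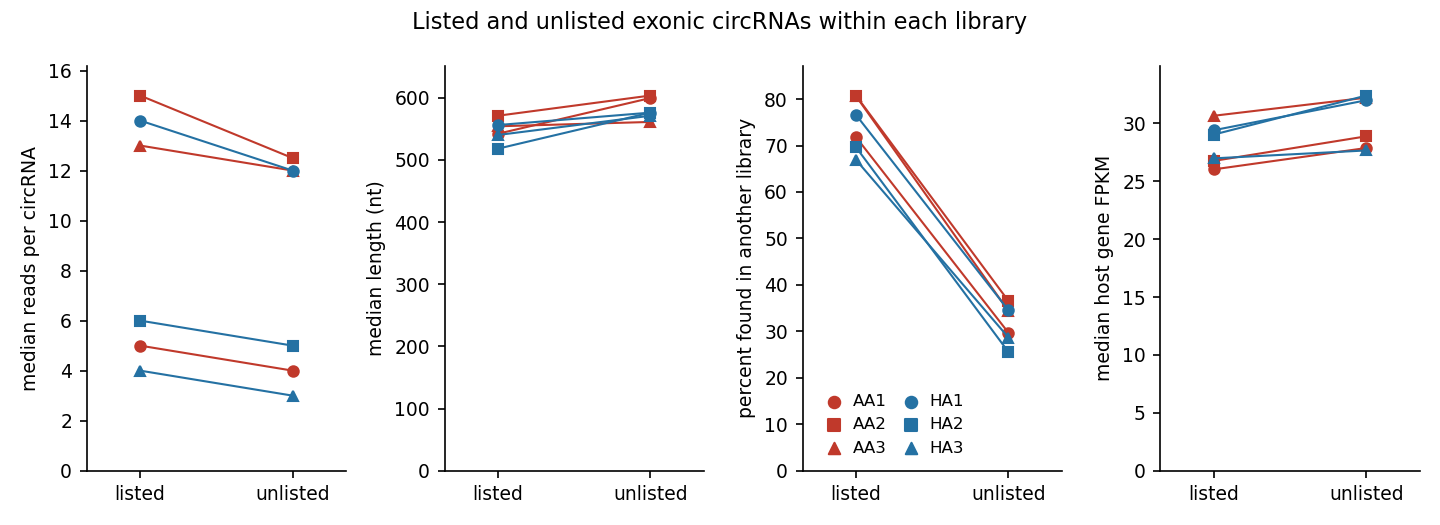
Median junction reads per detected circRNA, median length in nt, percent of circRNAs also found in another library, and median host gene FPKM, for listed and unlisted exonic circRNAs. Each line joins the values of 1 library, in red for AA and blue for HA. Reads and the percent found again fall from listed to unlisted in all 6 libraries, while length and host gene FPKM rise a little.

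Spliced length, as predicted in the deposited table, had a median of 516 nt over all members, with quartiles of 348.5 and 790.5 nt, and 84.7% of members were shorter than 1000 nt against 77.5% of the unlisted circRNAs. The genomic distance between the junction ends had a median of 7730 bases. For 61 members (3.62%) that distance equalled the length, so no intron lay inside, and for the unlisted circRNAs the share was 3.67%. Members of 251 to 500 nt numbered 649 and those of 501 to 1000 nt 622, while 39 were longer than 2000 nt. Detection in at least 3 libraries was seen for 13.9% of members up to 250 nt, 23.1% of those of 251 to 500 nt, 28.3% of those of 501 to 1000 nt, 31.1% of those of 1001 to 2000 nt and 25.6% of the longer ones.

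The shortest members came from VASH2, which encodes a tubulin carboxypeptidase, with 132 nt, from AZIN1, which encodes an inhibitor of antizyme, with 138 nt, and from CAPRIN1, which encodes an RNA-binding protein of stress granules, with 150 nt. VASH2 and AZIN1 circRNAs were found in 1 library each, with 5 and 4 reads. For CAPRIN1 the reads were 0, 23 and 0 in AA against 5, 15 and 4 in HA. All of the 3 longest members came from VCAN, the gene of versican, a large matrix proteoglycan of the follicle, with 8648, 5708 and 5466 nt. The 5708 nt circRNA had 14, 15 and 20 reads in AA against 0, 18 and 16 in HA, and the longest had 23 reads in AA3, 5 in HA3 and none elsewhere. The VCAN mRNA stood at 731 FPKM in AA and 732 in HA.

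The members came from 1049 host genes on 19 chromosomes, the 18 autosomes and X. A single member was given by 689 hosts (65.7%), 211 gave 2, and 149 gave 3 or more. Of the members, 721 (42.7%) shared the first or the last base of the junction with another member, and such circRNAs are not independent of each other. Unlisted exonic circRNAs also arose from 613 of the hosts (58.4%). Where a host gave at least 2 members, the leading one held a median of 66.7% of the reads. Host mRNAs were well expressed. The gene table held 1001 hosts, of which 994 (99.3%) reached 1 FPKM, and their median was 25.0 FPKM against 2.58 over all genes. Across these hosts the rank correlation of junction reads with FPKM was 0.168, a description only, since both come from the same libraries. No host was found in the gene table for 70 members, SMAD4 among them.

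The hosts with most members were KDM5B (12 members), MIB1 (10), CHD2 (10), PDCD4 (8), KANSL1L (7) and RBM6 (6). KDM5B, a histone H3K4 demethylase, had 229 reads in all, and its leading circRNA of 1098 nt had 2, 21 and 0 reads in AA against 36, 4 and 0 in HA. Of its members, 5 began at the same base, position 29342271 of chromosome 10. CHD2, a chromatin remodeller, spread 148 reads over its members, and the largest had only 28. MIB1, a ubiquitin ligase of the Notch pathway, had 253 reads, and 77 of the 115 reads of its 1250 nt circRNA lay in HA1. KANSL1L, a relative of a subunit of a histone acetyltransferase complex, had a leading circRNA of 1259 nt with 23, 22 and 54 reads in AA against 54, 19 and 45 in HA. Of its 7 members, 5 shared the junction base at position 124720160 of chromosome 15. PDCD4, an inhibitor of translation initiation, and RBM6, an RNA-binding protein, concentrated their reads more, with 62.0% and 79.9% on the leading circRNA.

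Counts are given from here on in the order AA1, AA2 and AA3, then HA1, HA2 and HA3, and coordinates are those of the deposited table on Sscrofa10.2. The most abundant member was an 846 nt circRNA of AFF2, the gene of a transcription elongation factor of the AF4/FMR2 family. It lies on the plus strand at chrX:138428178-138429023, and its length equals its genomic distance. It had 178, 103 and 137 reads in AA against 368, 245 and 247 in HA. Every AA library lay below every HA library, at 161 ± 28.2 reads per relative depth in AA and 349 ± 157 in HA (SD, n = 3). The ratio was 0.490, with a fitted log2 difference of -1.11 ± 0.409 (SE), and the edgeR quasi-likelihood test did not call it (adjusted p = 0.812). A 979 nt circRNA of AFF2 that shares its end base had 16, 0 and 51 reads in AA against 33, 70 and 31 in HA, with overlap. The AFF2 mRNA stood at 59.9 ± 1.74 FPKM in AA and 85.5 ± 9.95 in HA (SD, limma adjusted p = 0.173).

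The next members by reads were a 1437 nt circRNA of SMAD4, the shared signal carrier of the TGF-beta and BMP pathways, with 917 reads, a 1549 nt circRNA of RBM6 with 772 reads and a 512 nt circRNA of PDCD4 with 757 reads. The SMAD4 circRNA had 154, 83 and 179 reads in AA against 279, 109 and 113 in HA. The RBM6 circRNA had 119, 66 and 211 reads in AA against 141, 111 and 124 in HA, and its means of 158 ± 101 and 150 ± 47.0 reads per relative depth were within the spread between libraries. For PDCD4 the counts were 47, 101 and 125 in AA against 84, 249 and 151 in HA. The groups overlapped in all 3.

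Of the other abundant hosts, ZNF292, a zinc finger gene, gave 58, 22 and 102 reads in AA against 175, 47 and 21 in HA, the widest scatter among the 12 where it could be computed, with a coefficient of variation of 98.4%. MGA, a repressor that pairs with MAX and is given by the identifier ENSSSCG00000004739 in the circRNA table, gave 60, 49 and 50 reads in AA against 71, 69 and 115 in HA. TSHZ2, a zinc finger homeobox gene, gave 53, 31 and 55 reads in AA against 59, 91 and 103 in HA. Per relative depth neither MGA nor TSHZ2 overlapped between groups, at 61.8 ± 2.29 and 99.0 ± 27.5 for MGA and at 54.2 ± 16.1 and 96.3 ± 13.9 for TSHZ2. Neither was called by edgeR (adjusted p = 0.998 for both). A circRNA of the X-chromosomal gene ENSSSCG00000021322, which the gene name table calls ZFY, had 55, 85 and 42 reads in AA against 45, 56 and 30 in HA. That symbol is uncertain, since the gene lies on X, and it may be that of ZFX.

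PAN3, a subunit of the poly(A) tail deadenylase, had 57, 64 and 44 reads in AA against 52, 55 and 83 in HA. HSPG2, the basement membrane proteoglycan perlecan, was among the few abundant hosts with the higher mean in AA, with 124, 43 and 62 reads in AA against 16, 19 and 83 in HA, but its groups overlapped. GRB14, an adaptor that binds the insulin receptor, had 29, 0 and 44 reads in AA against 104, 76 and 55 in HA, and per relative depth the groups did not overlap, at 28.6 ± 28.3 and 95.5 ± 47.6. Its edgeR log2 difference was -1.74 ± 0.834 (SE, adjusted p = 0.812). KIAA2026 completed the 12 with 31, 16 and 71 reads in AA against 84, 125 and 51 in HA. In 4 of the 12 members, AFF2, MGA, TSHZ2 and GRB14, every AA library was below every HA library, and in 0 was it above. Over all tested circRNAs the shares were 8.88% and 2.86%. None of the 4 was called, and the count is a description of 12 members only. HA1 was the highest library per relative depth for 4 of the 12.

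**Figure D4:**
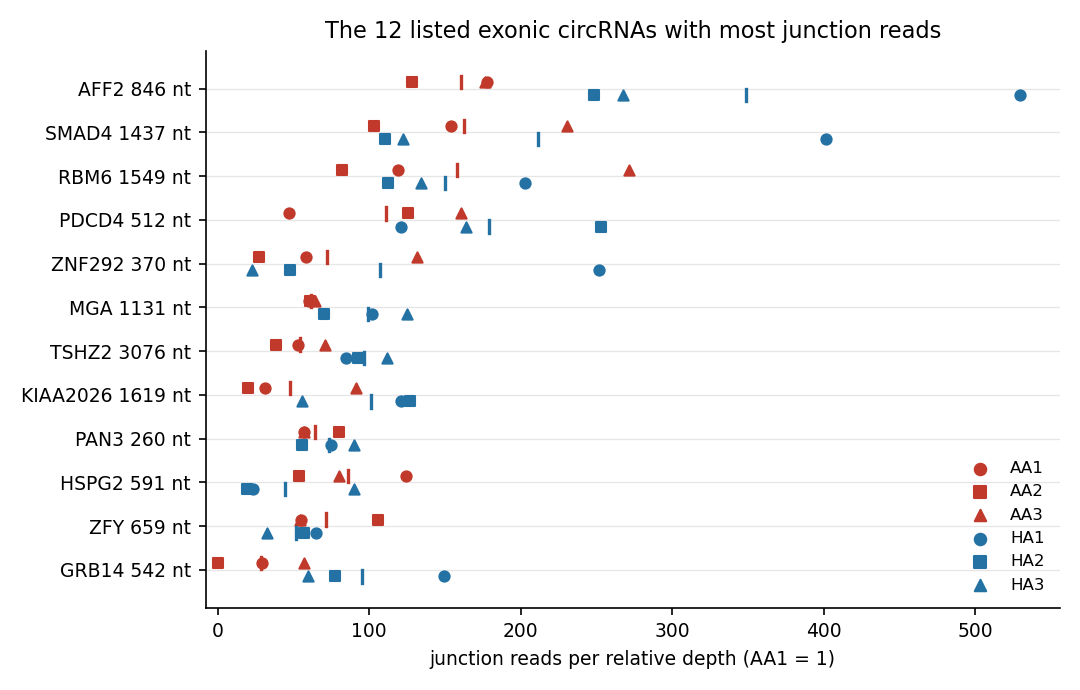
Junction reads divided by relative depth (horizontal axis) for the 12 listed exonic circRNAs with most reads, named by host gene and length. Points are libraries, in red for AA and blue for HA, and the vertical bars are group means over 3 libraries. AFF2, MGA, TSHZ2 and GRB14 show no overlap between AA and HA, though none was called by edgeR. HA1 lies far to the right for AFF2, SMAD4 and ZNF292.

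Among the 58 members found in every library, the coefficient of variation of reads per relative depth over all 6 ranged from 21.1% to 163%, with a median of 56.8%. The steadiest was PAN3 at 21.1%, followed by FAM114A2 at 21.8%, RNF138, a ubiquitin ligase, at 27.0%, ENSSSCG00000015531 at 32.8% and MGA at 33.3%. The FAM114A2 circRNA of 703 nt had 42, 37 and 40 reads in AA against 31, 72 and 50 in HA. The RNF138 circRNA of 282 nt had 39, 41 and 28 reads in AA against 19, 26 and 27 in HA, which per relative depth is 42.0 ± 7.97 against 27.7 ± 1.47 without overlap, and it was not called (edgeR adjusted p = 0.998). Reads relative to host mRNA were highest for MGA among members found in all 6 libraries, with 29.1 reads for each FPKM of the host, followed by AFF2 with 17.6.

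The comparison of AA with HA asked which members differed with atresia. Testing required detection, with 2 reads or more, in 3 libraries or more, which 426 members and 1014 circRNAs of all kinds met, and 1261 members were not tested. Calls rested on edgeR's quasi-likelihood test with adjustment over all 1014, and required both an adjusted p no larger than 0.05 and a 2-fold difference. One member was lower in AA, a circRNA of ZMYM4, and 0 were higher. Over all tested circRNAs the shares called were 0.0986% lower and 0% higher. The common dispersion, edgeR's measure of the spread between libraries beyond counting error, was 2.03. With that spread and 3 libraries per group, a member that was not called is not shown to be unchanged. At an unadjusted p of at most 0.05 with the same fold, 24 members were lower (5.63%, against 5.13% of all tested) and 1 was higher (0.235%, against 0.592%), and DESeq2 called the ZMYM4 circRNA only, with 0 higher. Of these 24, 21 had no read in any AA library and reads in all 3 HA libraries. They met the detection limit through HA alone, so the count is no evidence of its own, and 0 members had the opposite pattern. By its own comparison of these libraries the paper lists more circRNAs as different, several members named below among them. The fitted log2 differences had a median of -0.11 over the members tested and of -0.15 over all 1014. In bulk RNA a lower level of a circRNA and a smaller share of the cells that make it cannot be told apart.

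The circRNA of ZMYM4, a gene of a MYM-type zinc finger protein, is 670 nt long and lies on the minus strand at chr6:85027838-85037351. It had 0, 0 and 0 reads in AA against 89, 10 and 11 in HA. Over the pooled reads of each group it was at least 36.3-fold lower in AA, with the floor set at 3 reads over the group (edgeR adjusted p = 0.0288). It met the detection limit through HA alone, so being lower in 3 of 3 AA libraries is no evidence of its own. With the replicate number as a block, which pairs the AA and HA libraries of the same label date, the adjusted p was 0.626, and with TMM scaling it was 0.933, so the call was lost in both. HA1 held 89 of the 110 reads, and without any 1 HA library the circRNA was below the detection limit. Without AA1 the adjusted p was 0.258, without AA2 it was 0.0314 and without AA3 it was 0.0245. The ZMYM4 mRNA stood at 33.1 FPKM in AA and 36.1 in HA (limma adjusted p = 0.785). The other members of this host were sparse, the largest of them having 4, 0 and 0 reads in AA against 0, 10 and 2 in HA.

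Other members with primers were also read in HA and at 0 in AA, and none of them was called here by edgeR. A 908 nt circRNA of ANGPT1, the ligand of the receptor TEK, had 0, 0 and 0 reads in AA against 31, 9 and 9 in HA, at least 16.2-fold lower. Its host mRNA was at 30.1 FPKM in AA and 73.7 in HA (limma adjusted p = 0.157). A 768 nt circRNA of CBFA2T2, a transcriptional corepressor, had no read in AA against 17, 8 and 15 in HA, at least 13.2-fold lower, while its mRNA was at 13.0 and 13.2 FPKM. A 793 nt circRNA of RB1, the retinoblastoma tumour suppressor, had no read in AA against 10, 12 and 8 in HA, at least 9.91-fold lower. SLC30A7, a zinc transporter of the Golgi, gave a 660 nt circRNA with 4, 0 and 0 reads in AA against 31, 18 and 16 in HA. In the opposite direction, the 859 nt circRNA of WDR7, a partner of the vacuolar proton pump, had 6, 14 and 30 reads in AA against 0, 0 and 5 in HA. The edgeR adjusted p was 0.812 for ANGPT1, CBFA2T2 and RB1, 0.891 for SLC30A7 and 0.998 for WDR7. By its own comparison of these libraries the paper lists each of these circRNAs as different, in the same direction. It also reports differences in the same directions for them by quantitative PCR.

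Several of these hosts gave other circRNAs that did not share the pattern. A 630 nt circRNA of ANGPT1 that shares a junction base with the 908 nt one had 0, 5 and 12 reads in AA against 17, 2 and 19 in HA. SLC30A7 gave a 331 nt circRNA that shares a junction base with the 660 nt one, with 7, 0 and 16 reads in AA against 14, 12 and 0 in HA. For RB1 a 676 nt circRNA had 9 reads in AA3 and 11 in HA1 only. ANKHD1 and GMPS, whose primers name circRNAs that are not in the earlier lists, each gave members as well, and the largest, a 1055 nt circRNA of ANKHD1, had 0, 27 and 0 reads in AA against 17, 11 and 5 in HA.

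Further members of small unadjusted p in the lower direction were a 420 nt circRNA of MATR3, a nuclear matrix protein that binds RNA, with 14, 0 and 0 reads in AA against 41, 25 and 51 in HA, and a 243 nt circRNA of the transporter gene MFSD14A with no read in AA against 16, 15 and 10 in HA. MED17, a subunit of Mediator, had no read in AA against 32, 2 and 10 in HA, and SETD2, the histone H3K36 methyltransferase, had no read in AA against 33, 6 and 2 in HA. MFSD14A was evenly read across HA, whereas most of the MED17 and SETD2 reads lay in HA1. None was called (edgeR adjusted p = 0.812 for all 4). A 972 nt circRNA of the same MATR3 gene went the other way, with 6, 7 and 18 reads in AA against 0, 0 and 4 in HA, and was chosen after its values were seen.

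In the higher direction PSPC1 and PDCD4 had members with many reads in every AA library and groups that did not overlap. PSPC1, a paraspeckle protein, gave a 680 nt circRNA with 21, 28 and 32 reads in AA against 0, 11 and 3 in HA, 32.4 ± 10.3 against 4.81 ± 5.75 reads per relative depth. PDCD4 gave a 1169 nt circRNA with 16, 58 and 24 reads in AA against 0, 12 and 4 in HA. It starts at the same base as the abundant 512 nt circRNA of PDCD4, whose mean was higher in HA, and the PDCD4 mRNA stood at 475 FPKM in AA and 569 in HA. Their edgeR log2 differences were 2.69 ± 1.67 and 2.80 ± 1.51 (SE), with adjusted p of 0.998 for both.

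Most other members of small p in this direction had their AA reads mainly in AA2 or AA3. DTL, a substrate receptor of a ubiquitin ligase that degrades replication factors, gave a 408 nt circRNA with 7, 0 and 77 reads in AA against 0, 2 and 7 in HA. BDP1, a subunit of the RNA polymerase III factor TFIIIB, had 0, 28 and 21 reads in AA against 0, 0 and 4 in HA. ANKRD12 had 5, 33 and 0 against 0, 0 and 3, and CLNS1A, an assembly factor of spliceosomal snRNPs, had 0, 30 and 4 against 0, 0 and 2. A shorter SMAD4 circRNA of 854 nt had 5, 9 and 26 reads in AA against 0, 0 and 4 in HA, and it shares its end base with the abundant 1437 nt circRNA. None was called (edgeR adjusted p = 0.812 for DTL and 0.998 for the others).

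Groups that did not overlap were as frequent among the members as among all tested circRNAs. Every AA library was below every HA library for 34 members (7.98%, against 8.88% of all tested) and above for 11 (2.58%, against 2.86%). These shares are near the background and are not a result about the listed circRNAs. In all, 617 members were read in both groups, 735 only in HA libraries and 335 only in AA libraries, and 597 and 314 of the latter were found in a single library. The HA libraries also held more members each on average (659 ± 248 against 440 ± 210, SD, n = 3), and the part of this in the totals was not tested.

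**Figure D5:**
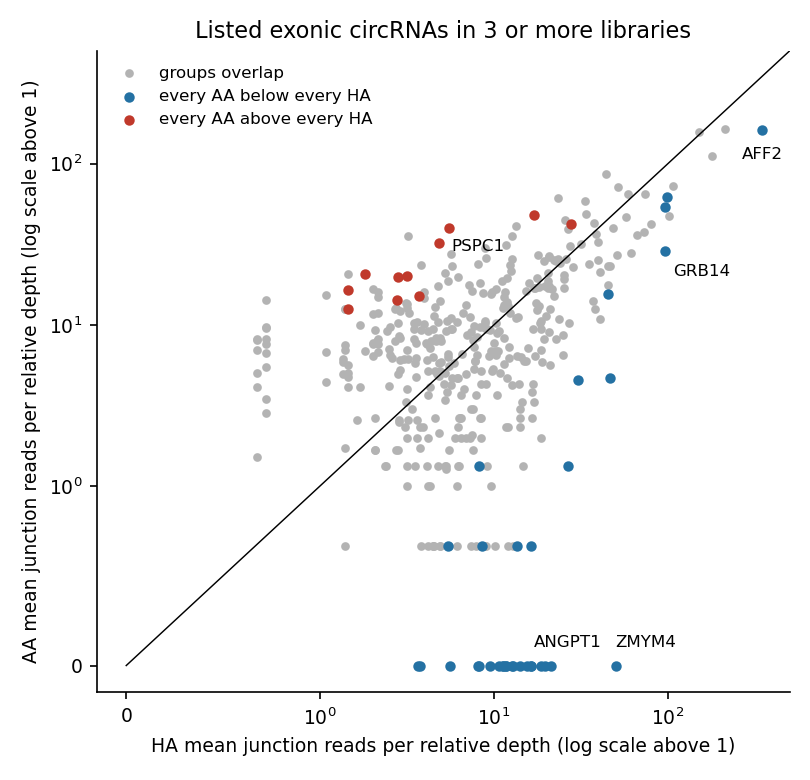
Mean junction reads per relative depth in AA (vertical axis) and HA (horizontal axis) for the 426 tested members, on axes that are linear below 1 and logarithmic above. Blue points mark the 34 members with every AA library below every HA library, red points the 11 with every AA library above, grey points the rest, and the line marks equal means. The row of blue points at an AA mean of 0 holds 21 members read in all 3 HA libraries and in no AA library, ZMYM4 farthest to the right.

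Host genes were grouped by function from lists that were written with earlier results of these data known. Of 84 chromatin and transcription regulators 43 gave a member, with 111 members and 2123 reads in all. Of 68 RNA-binding and splicing proteins 28 gave 61 members with 2390 reads, of 67 ubiquitin ligases and deubiquitinases 29 gave 63 members with 930 reads, of 94 kinases and phosphatases 32 gave 60 members with 944 reads, and of 62 genes of vesicle and membrane traffic 26 gave 48 members with 918 reads. Hormone and growth factor genes of the follicle gave fewer, 20 members from 9 of 69 genes, but 1516 reads, of which SMAD4 alone had 917 on its leading circRNA. Cytoskeleton and motor genes gave 20 members from 12 of 65 genes, genes of apoptosis, cell cycle and DNA repair 31 from 18 of 66, and the hosts of circRNAs that are well studied in human or mouse 24 from 14 of 40. In these 9 lists, whose members numbered 415 with 126 tested, edgeR and DESeq2 called 0. At an unadjusted p of 0.05 or less 13 were lower in AA and 0 higher, beside 5.13% and 0.592% of all tested circRNAs. All but the MATR3 circRNA had no read in AA and met the detection limit through HA alone, so the count is no evidence of its own. Examples are a 593 nt and a 367 nt circRNA of EED, a Polycomb subunit, with 19, 17 and 2 and with 20, 4 and 5 reads in HA.

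By summed reads per relative depth most lists overlapped between AA and HA. Chromatin and transcription regulators had 293, 340 and 455 in AA against 810, 349 and 322 in HA, with HA1 far above the rest. RNA-binding proteins had 389, 302 and 676 in AA against 663, 367 and 447 in HA. The list of apoptosis, cell cycle and DNA repair was the one of the 9 whose groups did not overlap, with 45, 72.3 and 21.9 in AA and 90.6, 110 and 99.8 in HA, or 46.4 ± 25.2 and 100 ± 9.55 (SD, n = 3). This is a description of 31 members with 383 reads, of which only 6 could be tested. Its members with most reads were TOP2A, a topoisomerase of dividing cells, with 8, 17 and 0 reads in AA against 0, 17 and 7 in HA, STAG2, a cohesin subunit, with 0, 29 and 0 against 0, 0 and 13, and the RB1 circRNA of 793 nt. Of these only RB1 separated the groups.

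Examples from the other lists show how uneven single members were. EZH2, the histone H3K27 methyltransferase, gave 19, 0 and 57 in AA against 38, 15 and 11 in HA, and CHD1, a chromatin remodeller, 0, 13 and 20 against 55, 15 and 15. LIFR, the receptor of leukaemia inhibitory factor, gave 15, 25 and 38 against 41, 16 and 18. RNF111, a ubiquitin ligase that promotes TGF-beta signalling, gave 46, 10 and 50 reads in AA against 22, 0 and 8 in HA, the higher mean being in AA, although the groups overlapped. Each of these members had its highest count in AA3 or HA1, where members had many reads each.

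Among kinase, traffic and cytoskeleton genes, BRAF, a kinase of the MAPK pathway, had 3, 0 and 37 reads in AA against 2, 27 and 19 in HA on its 834 nt circRNA, and 4 members of BRAF started at the same base. STK3, a Hippo pathway kinase, was read only in HA1 and HA2, with 43 and 8 reads. NEK1, a kinase of cilia and DNA repair, had 14, 0 and 22 against 0, 7 and 7. SNX27, a sorting nexin of endosomes, had 40, 32 and 0 in AA against 21, 5 and 25 in HA, and SEC24A, a COPII coat protein, had 12, 26 and 0 against 0, 0 and 6. EML4, a microtubule-binding protein, had 55, 0 and 42 against 22, 31 and 49, MACF1, which links microtubules to actin, 16, 0 and 0 against 0, 12 and 16, and FRYL 7, 8 and 20 against 0, 5 and 3.

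Well-known circRNA hosts of human and mouse were represented at modest levels. ZKSCAN1, a zinc finger gene, gave a 672 nt circRNA with 17, 20 and 12 reads in AA against 41, 6 and 10 in HA. ZNF609 gave an 874 nt circRNA with 18, 24 and 0 in AA against 0, 0 and 6 in HA, and CCDC66 a 1901 nt circRNA with 0, 0 and 15 against 26, 0 and 3. None of the 3 separated the groups.

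The mRNAs of the hosts were compared separately, with limma on log2(FPKM + 1). Of 994 hosts tested 0 passed an adjusted p of 0.05 in either direction (0 lower, 0 higher), and over all 11001 genes tested the shares were also 0% and 0%. At an unadjusted p of at most 0.05, 76 hosts were lower in AA (7.65%, against 6.14% of all genes) and 46 were higher (4.63%, against 9.48%). The median log2 difference was -0.09 over the hosts and 0.01 over all genes. The smallest adjusted p of a host was 0.0568, for LDLRAD3, with 51.7, 46.7 and 41.9 FPKM in AA and 23.6, 18.8 and 19.0 in HA, and for PRCP, a lysosomal carboxypeptidase, with 156, 234 and 145 in AA and 76.5, 61.0 and 54.2 in HA. Of the 24 members that were lower in AA at an unadjusted p, 4 had a host mRNA that was also lower at an unadjusted p and 0 a host mRNA that was higher.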

How the data were processed

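Back-splice junction reads of 6 libraries of rRNA-depleted RNA were analysed. The authors aligned reads to Sscrofa10.2 (susScr3) with bowtie2, called circRNAs with find_circ, kept those with at least 2 reads in a library, and deposited raw junction read counts and log2 values scaled to mapped reads. In the latter an absent circRNA is entered as 1 read. Gene levels were deposited by the authors as FPKM. A further set of per-gene columns, a scaled signal deposited beside the FPKM values, and the deposited annotation of each circRNA, with its predicted length, were used only as stated here. Relative depth was recovered from the constant between raw counts and deposited log2 values in each library.

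Groups and replicate numbers came from the sample titles. The same-numbered AA and HA libraries share a date in their labels, whose meaning is not given, so the numbers were treated as pairs for the block. Same-numbered libraries did not deviate together (correlations of deviations from the group means of -0.01, 0.00 and -0.06 for circRNAs and of -0.29, 0.00 and -0.40 for genes). The paper describes slaughter in batches on different days and a random division of the selected follicles into pools. Which batch or animals gave each library is not stated, so p-values measure the spread between these libraries.

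AA and HA were compared with edgeR 4.0.16 (quasi-likelihood, library sizes from relative depth, all 6 libraries, no covariate) on circRNAs detected, with 2 reads or more, in 3 libraries or more, and with limma 3.58.1 on log2(FPKM + 1) for genes of at least 1 FPKM in at least 3 libraries, in R 4.3.3, with Benjamini-Hochberg adjustment over all features tested. The scripts were tested on simulated data. A fold against a group without reads is a bound with a floor of 3 reads over the group, and floors and intervals cover counting error only. Listed and unlisted circRNAs were compared within libraries with an exact sign-flip permutation test. Alternatives were the block, TMM scaling, DESeq2 1.42.0, other filters, an ordinary linear model on the deposited log2 values, another pseudocount, quantile normalization, and leaving out each library. Members, lists and the rule for named circRNAs were chosen with earlier results of these data known. The rule named the 12 most abundant members, members called and the 8 of smallest p in each direction, members of hosts with primers in the study, the 3 longest and 3 shortest, the 6 hosts with most members, the 3 leading members of each host list, and the 5 of smallest coefficient of variation. Columns of the authors' own comparisons were not used. Symbols for hosts given as identifiers came from a table of gene names, and 37 hosts kept their identifier. The build's genome was not used here. Some members that the rule named are not reported here.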

Additional observations from a re-analysis of the deposited data

How the results depend on the processing

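The call of the ZMYM4 circRNA depended on the processing, and the cause was not tested beyond what each alternative removes. The number of members called lower in AA was 1 in the comparison reported, and 0 with the replicate block that pairs libraries of the same label date, with TMM scaling, with no filter, with detection in at least 5 libraries (where ZMYM4 is not tested), and with an ordinary linear model on the deposited log2 values adjusted over all circRNAs, an alternative added after seeing the data. It was 24 at an unadjusted p. Adjusted over the tested circRNAs only, the linear model called 1 member, GOLGA4 of 471 nt (0 reads in AA, 9, 11 and 9 in HA, adjusted p = 0.0383, and 0.354 over all circRNAs). Leaving out 1 library gave 0 to 1 lower and 0 higher. Members called higher were 0 in every setting but the unadjusted p, which gave 1. DESeq2, with the filter, called the ZMYM4 circRNA (adjusted p = 0.0116). With no filter the edgeR adjusted p of this circRNA was 0.330. The block changed no other call. For host mRNAs, leaving out 1 library gave 0 to 2 lower and 0 to 2 higher. The 4 came without AA3 (KIF21A and SLC35F5 lower, LDLRAD3 and PRCP higher, adjusted p 0.0434 to 0.0471), and every other setting gave 0, the block included.

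For listed minus unlisted circRNAs, the exact permutation test over 5 libraries cannot go below p = 0.0625, so leaving out a library bears on size only. The ranges were 0.24 to 0.30 for log2 reads, -0.102 to -0.075 for log2 length, 41.4 to 43.6 percentage points for the share found in another library and -0.112 to -0.0878 for log2 host gene FPKM. With at least 5 reads in the library the values were 0.22, -0.10, 45.3 and -0.12 in that order, with an adjusted p of 0.0625 for each. Length gave -0.0812 with 1 circRNA per host gene (adjusted p = 0.09375) and -0.0885 with the mean of log2 values (adjusted p = 0.0625). Host gene FPKM reversed to 0.0571 with the mean of log2 values (adjusted p = 0.0417). It was -0.14 among host genes with both kinds (adjusted p = 0.0625), an alternative chosen after seeing the data, as were the classes of reads. The share of exonic reads differed by -4.08 to -2.78 points without 1 library.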
